A study of Homo sapiens with 10 samples.

Results

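The genes described here were 9 members of the Eph receptor and ephrin family, namely the receptors *EPHA1*, *EPHA2*, *EPHB2*, *EPHB3* and *EPHB4* and the ligands *EFNA1*, *EFNA4*, *EFNB1* and *EFNB2*. They were taken by gene symbol from the 60554 genes in the tables, and the estimated counts of a gene's transcripts were summed. A filter on low values left 11640 genes to test, and 8 of the 9 members were among them. The exception was *EPHB3*, which had at most 2 counts in any library.

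Eph receptors are tyrosine kinases of the cell surface, and ephrins are ligands that are themselves held in the membrane of a neighbouring cell. When cells touch, the receptor signals into its own cell (forward signalling) and the ephrin signals into the cell that carries it (reverse signalling), usually through the actin cytoskeleton. A-class ephrins are attached by a lipid anchor and prefer EphA receptors, whereas B-class ephrins cross the membrane and prefer EphB receptors. In the intestinal crypt, EphB receptors are transcribed under β-catenin and TCF at the crypt base and meet B-class ephrins that are higher toward the villus, and this pair of opposed gradients is known for sorting epithelial cells along the crypt axis.

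RNA was sequenced in 10 libraries of Caco-2, a human colon carcinoma line whose cells can take on features of enterocytes. All cells came from a monoclonal Caco-2 clone that carried dCas9-KRAB, a Cas9 that does not cut DNA and is fused to a repressor domain, and that had been selected with puromycin. The clone was then infected with a second lentivirus holding a hygromycin gene and either an empty guide plasmid (gCtl, 5 libraries) or a guide RNA against the long non-coding RNA *LHFPL3-AS2* (g1, 3 libraries, and g2, 2 libraries). The model is thus a single clone of a single tumour line, and the labels do not say whether libraries of a group came from separate cultures, so the p-values measure the spread between these libraries, which may be technical. The labels give no replicate numbers, and those used here only tell libraries apart.

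The libraries held 3838803 to 8730468 estimated counts each. Levels are given in RPM, a gene's counts scaled to the total of its library, or in CPM, the same after TMM normalization. The mean of *LHFPL3-AS2* itself was 2.23 ± 1.17 RPM with the empty plasmid and 3.45 ± 1.63 RPM with a guide (n = 5 each, SD). Its log2 fold change was 0.61 (SE 0.42, adjusted p = 0.381, edgeR's quasi-likelihood test), so every direction below rests on the labels. At such low levels this check is limited by depth, and the qPCR that the design text names as the test of depletion was not analysed here. On the first principal component, with 44.5% of the variance, gCtl replicate 5 lay at -14.4. It was nearer to the g1 and g2 libraries (17.3 to 51.3) than the other gCtl libraries were (-38.9 to -29.0), though still negative like those. Of 8 epithelial markers 7 passed the filter, with a summed level of 1579 to 1992 RPM in gCtl and 1495 to 1809 RPM in g1 and g2, while *CDX1* was at or near 0. The defining genes of other cell types were low, with sums of 5.28 to 11.1 RPM in gCtl and 6.37 to 11.3 RPM in g1 and g2 for 7 fibroblast markers, 2.15 to 3.66 and 2.20 to 10.1 RPM for 4 endothelial markers, mostly *PECAM1*, and 0.579 to 2.02 and 0.429 to 2.55 RPM for 4 leukocyte markers.

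The promoters of the 3 most highly counted members are shown because *EPHB2* and *EPHA1* were the receptors called lower and *EFNB2* was the ligand with the highest count. They are the bases just upstream of the RefSeq start on GRCh38.p14, read 5′ to 3′ on the gene's strand, for *EPHB2* at chr1:22710588-22710837 (plus strand), for *EPHA1* at chr7:143408893-143409106 (minus strand) and for *EFNB2* at chr13:106535663-106535912 (minus strand). The *EPHA1* stretch has 214 bases, since the part that the annotation places inside the gene was left out, and the others have 250. Most *EPHA1* counts were given to a transcript that starts inside the gene, at chr7:143391391, so the stretch shown does not adjoin that start. Capitals mark matches on either strand to GGGCGG, known as the GC box, to the CCAAT box, to the E-box CAGGTG, and to the core of a TCF site, spelled CTTTGAA or else CTTTGAT. The matches shown do not overlap each other.
EPHB2: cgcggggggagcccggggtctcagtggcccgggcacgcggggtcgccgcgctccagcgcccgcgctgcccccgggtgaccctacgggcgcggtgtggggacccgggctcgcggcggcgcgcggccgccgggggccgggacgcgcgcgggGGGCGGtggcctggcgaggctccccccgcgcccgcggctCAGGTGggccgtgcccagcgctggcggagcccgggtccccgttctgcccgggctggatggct
EPHA1: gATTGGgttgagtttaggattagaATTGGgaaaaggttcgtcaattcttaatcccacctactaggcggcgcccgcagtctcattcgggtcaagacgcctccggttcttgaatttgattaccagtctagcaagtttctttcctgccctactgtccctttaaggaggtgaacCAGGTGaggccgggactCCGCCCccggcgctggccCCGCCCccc
EFNB2: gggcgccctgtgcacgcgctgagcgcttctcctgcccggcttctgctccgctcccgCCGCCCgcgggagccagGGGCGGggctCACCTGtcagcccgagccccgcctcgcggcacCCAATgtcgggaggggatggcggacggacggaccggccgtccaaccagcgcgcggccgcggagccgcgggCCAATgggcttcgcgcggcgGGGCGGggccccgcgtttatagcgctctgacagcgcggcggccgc
Within these stretches *EPHB2* held 1 GGGCGG and 1 CAGGTG, *EPHA1* held 2 GGGCGG, 2 CCAAT and 1 CAGGTG, and *EFNB2* held 3 GGGCGG, 2 CCAAT and 1 CAGGTG. In the full 250 bases upstream of the start, GGGCGG was found in 9 of 9 members and in 42.6% of all 35116 RefSeq promoters of that length, CCAAT in 6 of 9 and 32% of all, and CAGGTG in 3 of 9 and 17.5% of all. CTTTGAA or CTTTGAT was in 0 of 9 members and in 5.94% of all promoters, which says only that these letters are not in this window. The 250 bases were 84.8% G and C in *EPHB2*, 78.4% in *EFNB2* and 59.2% in *EPHA1*, against a median of 58.0% over all promoters.

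Levels between genes were compared per length, in TPM, for which counts were divided by annotated transcript length. Reads of these 3′ libraries fall near the end of an RNA and their number does not scale with its length, so the order in TPM depends on the annotated lengths. In gCtl the order of the mean TPM levels was *EPHA1* (49.8 ± 7.56, SD, n = 5), *EFNB2* (22.3 ± 3.21), *EPHB2* (21.9 ± 4.68), *EPHB4* (9.80 ± 3.08), *EFNA1* (4.24 ± 1.19), *EFNA4* (2.72 ± 1.44), *EPHA2* (1.48 ± 0.967), *EFNB1* (0.813 ± 0.367) and *EPHB3* (0.0484 ± 0.0286). The ranges of *EFNB2* and *EPHB2* overlapped, as did those of each neighbouring pair from *EFNA1* down to *EFNB1*. The first place of *EPHA1* depended on the length given to it, because most of its counts lay on a transcript of 651 bases. Without division by length, in RPM, it came after *EPHB2* and *EFNB2*, and these 2 changed places, at 113 RPM for *EPHB2* and 77.8 RPM for *EFNB2*. In the libraries labelled g1 and g2 *EFNB2* had the highest mean TPM level, 33.8 ± 15.1 (SD, n = 5), and its range overlapped that of *EPHA1* (29.0 ± 9.62).

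Of the 8 tested members, 2 were called, both lower, when the libraries labelled g1 and g2 together were compared with gCtl. They were *EPHB2* and *EPHA1*, both receptors. Calling required an adjusted p, by Benjamini and Hochberg's method, no higher than 0.05 together with a change of 1.5-fold or more. Over all 11640 genes 19.2% were called in either direction and 11.0% were called lower, so 2 of 8 is a count near the background. The median log2 fold change was -0.67 over the 8 members and 0.02 over all genes. This median is a description only, because the filter asked for more than 3 RPM in at least 2 libraries, which *EFNA1* and *EFNA4* met only with gCtl and *EFNB1* only with g1 and g2 libraries. DESeq2 called 3 members, limma on log2(RPM + 1) called 3 and limma on log2(TPM + 1) called 4. Of all 11640 genes these methods called 2426, 2246 and 2079. The members added by limma were *EFNA1* and *EFNA4*, which passed the filter only with gCtl, so these counts are a description.

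**Figure D1:**
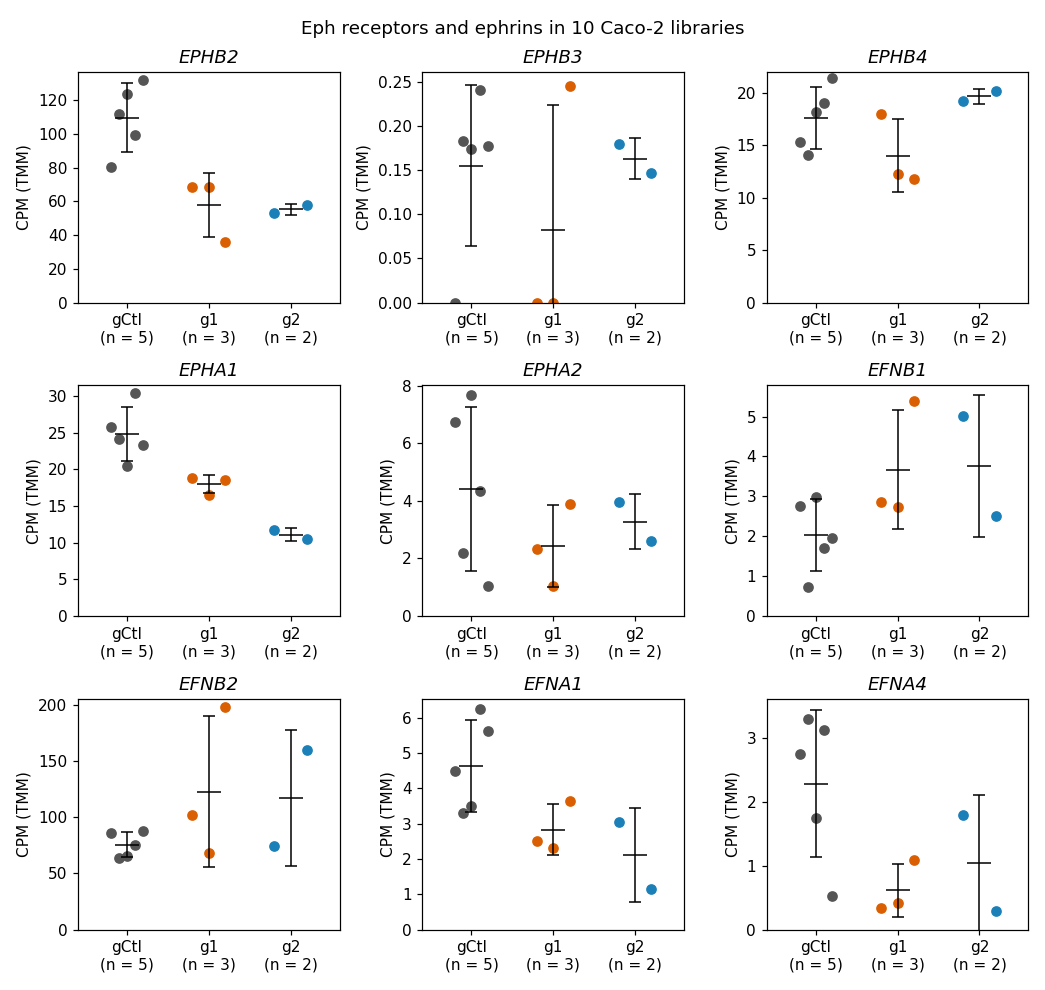
Level of each of the 9 genes in CPM (vertical axis from 0) in the gCtl, g1 and g2 libraries; each point is a library and the bars show the mean and SD. The g1 and g2 libraries lie below every gCtl library for *EPHB2* and *EPHA1*, while g1 replicate 3 and g2 replicate 2 stand at 198 and 160 CPM in *EFNB2*.

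*EPHB2* (ENSG00000133216.16, chr1:22710839-22921500, plus strand, GRCh38), the EphB receptor best known from the crypt base, had the highest count of the receptors. Its level was 80.3, 112, 124, 99.6 and 132 CPM in the gCtl libraries, 68.8, 68.8 and 36.2 CPM in those labelled g1, and 52.9 and 57.6 CPM in those labelled g2. Every library labelled g1 or g2 was below every gCtl library, and g1 replicate 3 was the lowest. Of all tested genes, 15.4% did not overlap between these 5 and 5 libraries. The mean fell from 110 ± 20.5 CPM (SD, n = 5) to 56.9 ± 13.5 CPM (SD, n = 5), a log2 fold change of -0.95 (SE 0.18, adjusted p = 0.00227). It was lower by about the same amount with g1 (-0.93, SE 0.21, adjusted p = 0.00642) and with g2 (-0.99, SE 0.25, adjusted p = 0.00855). Between the guides the difference, g2 minus g1, was -0.06 (SE 0.26, adjusted p = 0.920).

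*EPHA1* (ENSG00000146904.8, chr7:143390289-143408892, minus strand), a receptor of A-class ephrins found mainly in epithelia, stood at 25.8, 24.1, 20.5, 30.4 and 23.4 CPM in gCtl. It was at 18.9, 16.5 and 18.6 CPM in g1 and at 11.7 and 10.4 CPM in g2. Both guides were below gCtl without overlap, and both g2 libraries were below all g1 libraries. Of all tested genes, 26.6% did not overlap between g1 and gCtl, 38.0% between g2 and gCtl and 32.9% between g2 and g1, where the groups are small. Over g1 and g2 together the mean dropped from 24.8 ± 3.67 to 15.2 ± 3.92 CPM (SD, n = 5 each), and the log2 fold change was -0.70 (SE 0.19, adjusted p = 0.0177). The g1 and g2 libraries were pooled here, so their spread also holds the difference between the guides. The call was lost without gCtl replicate 4 (-0.62, adjusted p = 0.0548). With g2 alone *EPHA1* was called lower (-1.16, SE 0.22, adjusted p = 0.00147), whereas with g1 alone it was not called (-0.46, SE 0.18, adjusted p = 0.0795). The difference of g2 minus g1 was -0.70 (SE 0.23, adjusted p = 0.0873), so a difference between the guides was not called for the gene as a whole.

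The other receptors were not called. *EPHB4* (ENSG00000196411.9, chr7:100802565-100827521, minus strand), the partner of ephrin-B2 in the separation of arteries and veins, was 15.3, 14.1, 18.1, 19.0 and 21.5 CPM in gCtl, 18.0, 12.2 and 11.8 CPM in g1 and 19.2 and 20.2 CPM in g2. The groups overlapped, and the log2 fold change was -0.11 (SE 0.20, adjusted p = 0.713) over both guides, -0.33 (SE 0.21) with g1 and 0.16 (SE 0.23) with g2. *EPHA2* (ENSG00000142627.12, chr1:16124337-16156087, minus strand), an epithelial receptor of ephrin-A1, ranged from 1.06 to 7.67 CPM in gCtl, with a median of 4.33, and from 1.05 to 3.95 CPM in g1 and g2, with a median of 2.62. These values rest on 5 to 44 counts a library and overlapped throughout (-0.63, SE 0.48, adjusted p = 0.354). *EPHB3* (ENSG00000182580.2, chr3:184561784-184582409, plus strand), which acts with *EPHB2* in the crypt, summed to 4 counts in gCtl and to 4 in g1 and g2, so no fold is given and a difference was not detectable at this depth.

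Among the B-class ligands, *EFNB2* (ENSG00000125266.6, chr13:106489731-106535662, minus strand), which encodes ephrin-B2, stood at 85.5, 63.3, 65.1, 75.3 and 88.0 CPM in gCtl. It was at 102, 68.1 and 198 CPM in g1 and at 74.2 and 160 CPM in g2. Thus 3 of the 5 libraries labelled g1 and g2 were above all gCtl libraries and 2 were within their range. The log2 fold change was 0.68 (SE 0.25, adjusted p = 0.0626), and *EFNB2* was not called. The 2 libraries with the highest level, g1 replicate 3 and g2 replicate 2, were also the 2 with the highest totals, and without them the log2 fold change was 0.12 (SE 0.16, adjusted p = 0.664). With g2 replicate 1 left out it was called (0.80, adjusted p = 0.0253), and with DESeq2 it was called as well (0.68, adjusted p = 0.0376). The part of depth in these values was not tested.

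*EFNB1* (ENSG00000090776.5, chrX:68828997-68842147, plus strand), which encodes ephrin-B1, ranged from 0.738 to 2.99 CPM in gCtl, with a median of 1.95, and from 2.50 to 5.38 CPM in g1 and g2, with a median of 2.86. The groups overlapped and the gene was not called, at a log2 fold change of 0.88 (SE 0.40, adjusted p = 0.119). It rests on 4 to 17 counts a library in gCtl and 13 to 44 in the others. *EFNB1* passed the filter only through g1 and g2 libraries, so its value is a description. Among the members, both B-class ligands had positive and the 4 tested receptors negative values in this comparison. Neither ligand was called, so no difference between classes is read from these signs. Of the receptors, *EPHB2* and *EPHA1* passed the test. *EPHB4* was 0.16 with g2 and turned to 0.07 over both guides by limma on log2(TPM + 1). The tested receptors outside the members, *EPHA4* and *EPHB6*, had positive values (1.45 and 0.22) and are described below.

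Both A-class ligands had values below 0 that did not pass the test by edgeR. *EFNA1* (ENSG00000169242.11, chr1:155127460-155134857, plus strand), a ligand that tumour necrosis factor induces in endothelial cells, was 4.50, 3.31, 3.49, 6.26 and 5.63 CPM in gCtl, 2.50, 2.32 and 3.65 CPM in g1, and 3.05 and 1.16 CPM in g2. Only g1 replicate 3 reached into the gCtl range (-0.85, SE 0.34, adjusted p = 0.0818). Limma called *EFNA1* lower over both guides on log2(RPM + 1) (-0.75, adjusted p = 0.0449) and on log2(TPM + 1) (-0.72, adjusted p = 0.0410), and with g2 on both scales (adjusted p = 0.0339 and 0.0255). The edgeR value with g2 was -0.59 without g2 replicate 2 and -1.97 without g2 replicate 1. *EFNA1* passed the filter only through the gCtl libraries, so its calls are a description. *EFNA4* (ENSG00000243364.7, chr1:155063731-155069553, plus strand) was 2.75, 3.31, 1.74, 3.13 and 0.528 CPM in gCtl, 0.333, 0.422 and 1.10 CPM in g1, and 1.79 and 0.291 CPM in g2. Here gCtl replicate 5 lay among the g1 and g2 libraries, and the values rest on 2 to 18 counts a library. The difference was -1.49 (SE 0.58, adjusted p = 0.0727). *EFNA4* passed the filter only through gCtl replicates 2 and 4, so it dropped out of the test without either of them, and its call without gCtl replicate 5 (-1.76, adjusted p = 0.0256) is given as a description.

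Taken by guide, g1 against gCtl gave 1 member called of 8, *EPHB2*, which was lower, and over all genes 16.8% were called in either direction and 9.94% were called lower. In g2 against gCtl 2 of 8 were called, *EPHB2* and *EPHA1*, both lower, beside 23.7% of all genes in either direction and 13.0% called lower. The 3 comparisons share the gCtl libraries, so they are not independent of each other. Between the guides, g2 against g1, edgeR called 0 of 8 members and 4.98% of all genes. In that comparison 1 member, *EPHA1*, had an unadjusted p under 0.05, as did 21.0% of all genes. DESeq2 called 0 members, and limma on log2(RPM + 1) and on log2(TPM + 1) called 1 each, again *EPHA1*. Of all genes these methods called 841, 778 and 621.

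**Figure D2:**
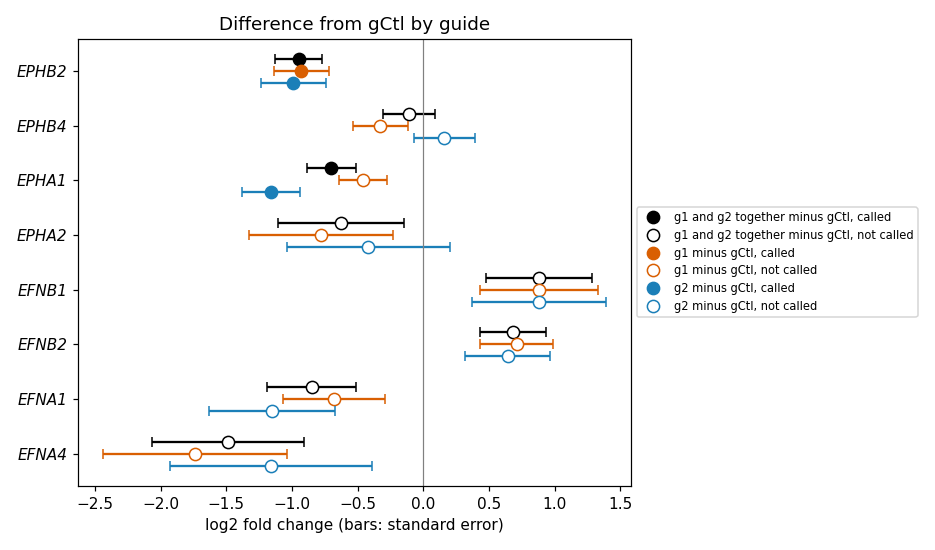
Log2 fold change against gCtl (horizontal axis) of the 8 tested genes for g1 and g2 together, for g1 and for g2; bars show the standard error and filled points were called. *EPHB2* was called for both guides, at -0.93 and -0.99, and *EPHA1* for g2 alone, at -1.16, a difference between guides that was not called for the gene.

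Reads of these 3′ libraries fall near the end of an RNA, so the transcript given the counts bears on which end was read. Where transcripts share sequence, the division between them is an estimate by Kallisto, the program that assigned the reads. For *EPHA1*, 86.4% of the gCtl counts went to EPHA1-008 (ENST00000458129.1), a non-coding transcript of 651 bases at chr7:143390289-143391391, and 0.574% went to the coding EPHA1-001. EPHA1-008 overlaps the end of the coding transcript over 280 bases of the genome and ends 823 bases beyond it. How many of the 280 bases are exonic in both was not examined. The counts of EPHA1-008 were 25.8, 21.7, 19.3, 27.2 and 17.6 RPM in gCtl, 13.7, 14.8 and 13.6 RPM in g1, and 7.83 and 5.04 RPM in g2.

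The parts of a receptor were then tested in place of the gene, a choice made after these values were seen. EPHA1-008 was called lower over both guides (-0.94, SE 0.25, adjusted p = 0.0135), with g1 (-0.61, SE 0.21, adjusted p = 0.0477) and with g2 (-1.63, SE 0.26, adjusted p = 0.000509), and lower in g2 than in g1 (-1.02, SE 0.28, adjusted p = 0.0446). The rest of *EPHA1*, mostly retained introns, went from 3.33 ± 1.87 RPM in gCtl to 3.89 ± 1.55 RPM in g1 and g2 (SD, n = 5 each), with log2 fold changes of 0.31 (SE 0.42, adjusted p = 0.624) over both guides, 0.29 with g1 and 0.34 with g2. The call of *EPHA1* as lower thus rests on counts given to a non-coding transcript. That transcript overlaps the coding one over 280 bases of the genome at its end, where 3′ reads of the coding RNA would fall. How Kallisto divides reads that fit both was not tested, so these counts do not show whether the coding RNA was lower.

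That end of *EPHA1* also lies against *ZYX*, which encodes the focal adhesion protein zyxin on the opposite strand. Of the 651 bases of EPHA1-008, 82 are within annotated *ZYX* exons. *ZYX* was 7.36 ± 2.90 CPM (SD, n = 5) in gCtl and 3.32 ± 2.10 CPM (SD, n = 5) in g1 and g2 and was also called lower (-1.14, SE 0.38, adjusted p = 0.0394), with overlap between the groups. Whether strand was used in the counting is not given in the sources used here, and the part of *ZYX* reads in the *EPHA1* value was not tested. At the other end *EPHA1-AS1* overlaps *EPHA1* on the opposite strand, with 51.3 counts over all 10 libraries.

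The counts of *EPHB2* were given mainly to transcripts with a far and a near end. EPHB2-001 (ENST00000400191.7), the longest coding transcript, ends 7230 bases beyond EPHB2-002 (ENST00000374632.7), also coding. In gCtl EPHB2-001 held 57.3, 81.6, 88.7, 74.5 and 80.2 RPM, against 41.9, 41.1 and 13.7 RPM in g1 and 27.9 and 27.2 RPM in g2. It was called lower over both guides (-1.27, SE 0.22, adjusted p = 0.00131), with g1 (-1.25, SE 0.26, adjusted p = 0.00397) and with g2 (-1.32, SE 0.30, adjusted p = 0.00578). The other *EPHB2* transcripts together went from 36.4 ± 10.1 RPM to 25.2 ± 4.70 RPM (SD, n = 5 each) and were not called (-0.46, SE 0.19, adjusted p = 0.0901). As a share of the gene, EPHB2-001 was 60.6 to 72.0% in gCtl and 40.3 to 58.7% in g1 and g2, which did not overlap. Of all tested genes, 15.4% did not overlap in level between these groups. How Kallisto divides reads that fit both transcripts bears on these shares, and its part was not tested.

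*EPHB4* was called between the guides only when its parts were separated (for the whole gene, g2 minus g1 was 0.49, SE 0.25, adjusted p = 0.278). Its coding transcripts, which share an end at chr7:100802565, held 13.7, 12.7, 15.0, 18.2 and 14.4 RPM in gCtl, 10.3, 7.69 and 6.10 RPM in g1, and 15.3 and 15.7 RPM in g2. All g1 libraries were below all others, in a part chosen after the values were seen. Of all tested genes, 26.6% did not overlap between g1 and gCtl and 32.9% between g2 and g1. The coding part was called lower with g1 (-0.85, SE 0.22, adjusted p = 0.0118), had a value of 0.23 (SE 0.23, adjusted p = 0.492) with g2, and was higher in g2 than in g1 (1.08, SE 0.25, adjusted p = 0.0236). The retained introns of *EPHB4* made up 38.3 to 45.2% of the gene in g1, 12.4 to 17.4% in g2 and 7.62 to 32.8% in gCtl, and their level was not called in any of the 4 comparisons.

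**Figure D3:**
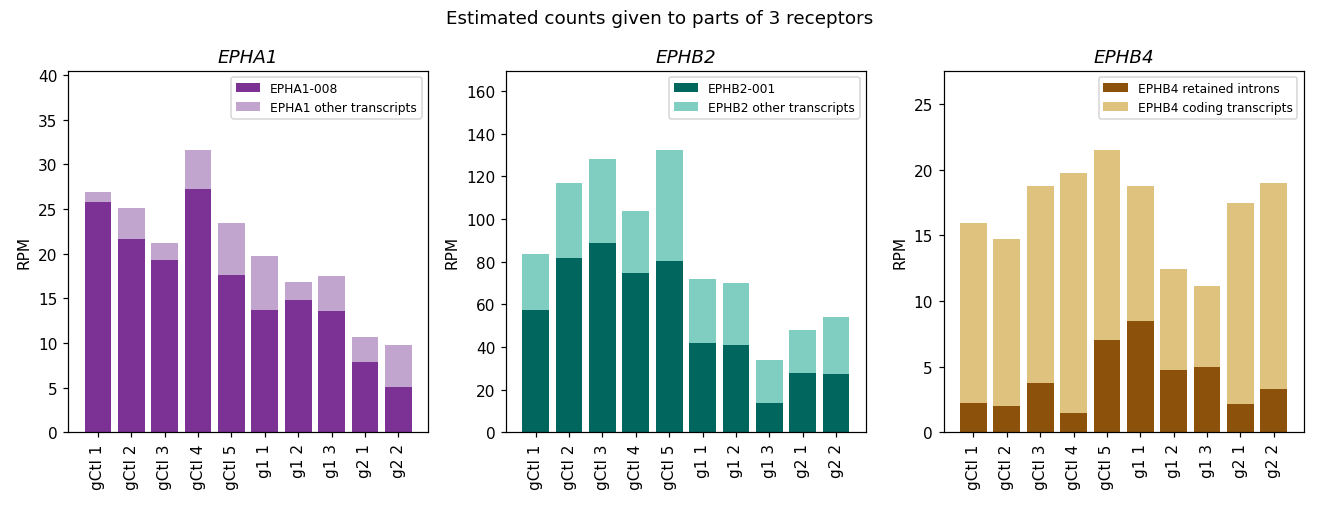
Stacked bars of the RPM given to parts of *EPHA1*, *EPHB2* and *EPHB4* in each of the 10 libraries. EPHA1-008 is shorter in all g1 and g2 bars than in gCtl while the rest of *EPHA1* is not called, EPHB2-001 shrinks more than the rest of *EPHB2*, and the coding part of *EPHB4* is lowest in g1.

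By class, with no test, the summed B receptors were 127 ± 22.4 CPM (SD, n = 5) in gCtl and 73.3 ± 14.9 CPM (SD, n = 5) in g1 and g2, and the B-class ephrins 77.5 ± 11.6 and 124 ± 56.9 CPM. The receptors did not overlap between the groups (at least 95.6 CPM in gCtl and at most 86.8 CPM in the others), whereas the ephrins did. Of all tested genes taken singly, 15.4% did not overlap between these groups. *EPHB2* made up 83.8 to 88.7% of the B receptors in gCtl and 73.2 to 84.9% in g1 and g2. The summed A receptors, mostly *EPHA1*, were 29.2 ± 4.32 and 18.0 ± 3.89 CPM, and the A-class ephrins 6.93 ± 1.56 and 3.32 ± 1.45 CPM, also without overlap. The receptor sums thus largely repeat the called *EPHB2* and *EPHA1*. Both A-class ligands passed the filter only through gCtl libraries, so their sum is a description.

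The ratio of A-class ephrins to A receptors overlapped between the groups, at 0.186 to 0.270 in gCtl (mean 0.236) and 0.111 to 0.309 in g1 and g2 (mean 0.184). *EFNB2* over *EPHB2*, as a ratio of CPM, was 1.06, 0.566, 0.525, 0.756 and 0.666 in gCtl, 1.48, 0.991 and 5.47 in g1, and 1.40 and 2.78 in g2. Of the libraries labelled g1 and g2, 4 of 5 were above all gCtl libraries, and g1 replicate 2 was below gCtl replicate 1. The mean of 2.42 in g1 and g2 was 1.66 without g1 replicate 3, and the mean in gCtl was 0.715. The highest ratios, in g1 replicate 3 and g2 replicate 2, belong to the libraries with the highest totals. *EFNB2* was not called and *EPHB2* was called lower, so the ratio is not a separate result. In bulk RNA, fewer cells that carry an RNA and less of it per cell cannot be told apart.

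**Figure D4:**
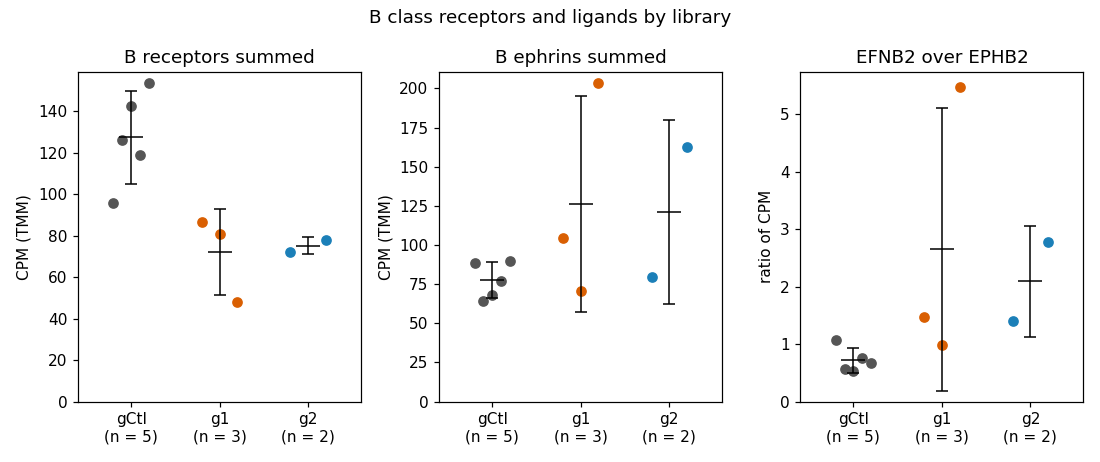
Summed CPM of the B receptors and of the B-class ephrins, and the ratio of *EFNB2* to *EPHB2*, in each library by group, with mean and SD. The B receptors of g1 and g2, mostly *EPHB2*, lie below gCtl, at most 86.8 CPM, and the ratio reaches 5.47 in g1 replicate 3.

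Of 13 further Eph receptors and ephrins, 2 passed the filter. *EPHA4*, a receptor that binds ephrins of both classes, was 2.75, 2.39, 2.62, 1.44 and 3.0 CPM in gCtl, 13.5, 6.76 and 3.78 CPM in g1, and 5.56 and 4.36 CPM in g2. All libraries labelled g1 and g2 were above all gCtl libraries, and 15.4% of all tested genes did not overlap between these groups. *EPHA4* passed the filter only through the g1 and g2 libraries, since 1 gCtl library exceeded 3 RPM, so its values are a description. They were 1.45 (SE 0.37, adjusted p = 0.0120) over both guides, 1.69 (SE 0.39, adjusted p = 0.00718) with g1 and 1.0 (SE 0.45, adjusted p = 0.112) with g2. A difference between the guides was not called (g2 minus g1 -0.68, SE 0.47, adjusted p = 0.440). *EPHB6*, a receptor without kinase activity, was 3.22 ± 0.762 and 3.71 ± 1.45 CPM (SD, n = 5 each) and was not called (0.22, SE 0.33, adjusted p = 0.669). The others had at most 24 counts in any library, among them *EPHA3* with 10 counts over gCtl and 56 over g1 and g2, and *EFNA2* had 0.

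Genes that act with the receptors were read against the 19.2% of all genes called over both guides and the 11.0% called lower. Statements of no overlap stand beside the 15.4% of all tested genes that did not overlap between the groups. Of 32 tested genes of forward signalling (Src kinases, adaptors, exchange factors, GTPases), 2 were called lower and 3 higher, which is 15.6%, with a median log2 fold change of 0.09. *PIK3R1*, the regulatory subunit of PI3-kinase, rose from 141 to 239 CPM (0.76, SE 0.15, adjusted p = 0.00269) without overlap. *FYN*, a Src-family kinase that Eph receptors bind, was 0.675 CPM in gCtl and 4.57 CPM in g1 and g2 on average, also without overlap. It passed the filter only through g1 and g2 libraries and had 1 to 7 counts a gCtl library, so its value of 2.65 (SE 0.53, adjusted p = 0.00276) is a description and not a measure of size. The other called genes overlapped between the groups and are named because they are few. They were the GTPase *RHOA* (-0.89, adjusted p = 0.00843), the adaptor *GRB7* (-1.61, adjusted p = 0.0122) and the exchange factor *VAV3* (0.95, adjusted p = 0.0224).

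Of 8 tested genes of reverse signalling, 1 was called (12.5%), *STAT3* (0.60, adjusted p = 0.0114), a transcription factor, which was higher with overlap. Of 19 tested genes of cleavage, dephosphorylation and endocytosis, 1 was called lower and 1 higher (10.5%), both without overlap. These shares stand beside the 19.2% of all genes, and with so few genes nothing is read from them. *PSEN2*, a catalytic subunit of γ-secretase, fell from 11.4 to 3.47 CPM (-1.71, SE 0.32, adjusted p = 0.00175). *MMP14*, a membrane metalloproteinase, rose from 5.03 to 14.5 CPM (1.53, SE 0.26, adjusted p = 0.00101). The median log2 fold changes of these lists were 0.16 and -0.08.

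Among 15 tested crypt genes of β-catenin and TCF, the class to which *EPHB2* is usually counted, 5 were called lower and 2 higher, which is 46.7% against 19.2% of all genes, with a median log2 fold change of -0.32 against 0.02. The largest falls without overlap were those of *NKD1*, a feedback inhibitor of Wnt signalling, from 39.8 to 8.69 CPM (-2.21, SE 0.20, adjusted p = 2.39e-05), and of *SP5*, a transcription factor induced by Wnt, from 14.1 to 4.06 CPM (-1.79, SE 0.39, adjusted p = 0.00466). Higher were *PROM1* (0.90, SE 0.17, adjusted p = 0.00221), which encodes the stem cell surface protein CD133, and *SOX9* (0.77, SE 0.14, adjusted p = 0.00132), a transcription factor of crypt progenitors. The list did not move in a single direction, and it was chosen with results of these libraries known.

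**Figure D5:**
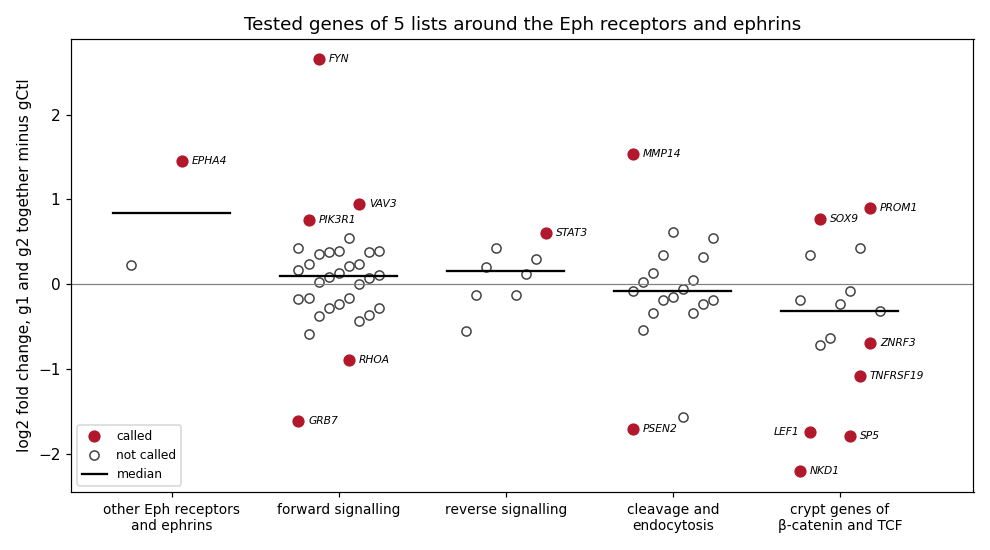
Log2 fold change of g1 and g2 together against gCtl (vertical axis) for the tested genes of 5 lists; filled points were called and carry their symbol, open points were not, and the line is the median of the list. The crypt genes hold 5 called lower and 2 called higher, and the forward signalling genes 2 lower and 3 higher around a median of 0.09.

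Genes with a pattern over the 10 libraries most like that of *EPHB2* were *CD276*, *SLC25A37* and *LRP8*, by a root mean square difference of 0.17, 0.20 and 0.20 in log2(CPM + 1) centred on the gCtl mean. For *EPHA1* they included *SEPT9* and *LGALS8*, at 0.13 and 0.15.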

How the data were processed

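The authors sequenced Lexogen QuantSeq 3′ libraries of Caco-2 cells and quantified the reads with Kallisto (version 42.5 in the submitters' processing notes) on GENCODE v24. They deposited estimated counts per transcript, not normalized and not pooled, for 199169 transcripts in each of 10 libraries. Here estimated counts were summed per gene, and RPM and TPM were computed from them. A gene was tested if it had a protein-coding transcript and exceeded 3 RPM in 20% of the libraries or more. Sums were rounded and fitted with edgeR 4.0.16 (R 4.3.3, glmQLFit and glmQLFTest, TMM), with Benjamini-Hochberg adjustment over all genes tested, in a fit of 2 groups (g1 and g2 together) and a fit of 3 groups. *LHFPL3-AS2* was tested in a fit over all biotypes (minimum 10 counts). The thresholds were 0.05 for the adjusted p and 1.5 for the fold change. Replicates of a group differed by more than sampling noise in all 14 pairs (chi-square over degrees of freedom 4.28 to 26.0). Positions are from GENCODE v29, in which *EFNB2* is ENSG00000125266.7, and promoters are from RefSeq. The *EFNB2* transcript with counts starts inside the gene, at chr13:106535114, downstream of the promoter shown. EPHA1-008 also starts inside its gene, at chr7:143391391. RefSeq gave 2 promoters for *EPHB2*, and the first was used. Of 12 reverse signalling symbols 11 were in the tables.

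The members and the lists were chosen with earlier results of these data known. Named were all members, the tested genes of the further family, per other list the 2 largest rises and falls among called genes without overlap, and 3 genes most like each called member, of which 1 is not reported here. Alternatives were DESeq2 1.42.0, limma 3.58.1 on log2 values with a pseudocount of 1, other scalings and filters, glmTreat, pairwise fits and each library left out. The tests were tested on simulated data. The totals of 3838803 to 8730468 counts limit genes of few counts.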

Additional observations from a re-analysis of the deposited data

Results flagged for a closer look

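A few values stood apart. EPHA1-008 differed between the guides, with a log2 difference of -1.02 in g2 minus g1 (SE 0.28, adjusted p = 0.0446, edgeR's quasi-likelihood test), in a test chosen after its values were seen. The coding transcripts of *EPHB4* differed between the guides in the other direction, by 1.08 (SE 0.25, adjusted p = 0.0236). The part of Kallisto's division of reads in both values was not tested. *EPHB3* in gCtl replicate 1 was set apart from the other gCtl libraries at 0 CPM, where the others had 1 count each. Of 31 quantities examined for a gCtl library far from the rest this was the 1 found, and chance gives about 1 in 20.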

How the results depend on the processing

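No paired analysis was possible because the labels carry no replicate numbers. *EPHB2* kept its direction under all 21 alternatives over both guides (-1.05 to -0.76) and its call under all but the test against a fold change of 1.5 (adjusted p = 0.121); *EPHA1* kept its direction (-0.82 to -0.60), and lost its call in that test (adjusted p = 0.597) and without gCtl replicate 4. Without EPHB2-001 *EPHB2* was not called for either guide, and without EPHA1-008 the *EPHA1* value reversed to 0.31 over both guides and 0.34 with g2.

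The members called, g1 and g2 together against gCtl, were 4 by limma on log2(TPM + 1), 0 against a fold change of 1.5, and 1 to 4 with each library left out, 1 without gCtl replicate 4 and 4 without g2 replicate 1, when *EFNA4* (-1.97, adjusted p = 0.0259) and *EFNB2* joined. For g1 they were 0 by limma on log2(TPM + 1) and against a fold change of 1.5, 2 without a filter, in the pairwise fit and without the 2 deepest libraries (chosen after seeing the data), and 1 to 2 with each library left out, 2 without gCtl replicate 5, g1 replicate 2, g2 replicate 1 or g2 replicate 2. For g2 they were 1 against a fold change of 1.5 and 2 to 4 with each library left out, 4 without g2 replicate 1. For g2 against g1 they were 1 by library totals and by both limma fits.

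All genes called, against a fold change of 1.5, were 488 over both guides, 506 with g1, 802 with g2 and 92 between the guides, in place of 2232, 1950, 2757 and 580. Without the 2 deepest libraries they were 1430 over both guides and 1735 for g2. With each library left out they were 1703 to 2424 over both guides, 1256 (without g1 replicate 3) to 2260 for g1, 1498 (without g2 replicate 2) to 3112 for g2, and 267 (without g1 replicate 1; 314 without g1 replicate 2) to 859 for g2 against g1, which had 159 in the pairwise fit. By library totals the share called lower was 69.4% in place of 57.5% over both guides, 73.3% in place of 54.9% for g2 and 83.4% in place of 68.6% for g2 against g1, and the median log2 fold change of all genes for g2 was -0.16. The causes were not tested.

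In the lists over both guides, the calls among the further receptors and ephrins were 0 by limma on log2(TPM + 1) and against a fold change of 1.5, 2 without a filter and 1 to 1 with each library left out. Forward signalling had 1 against a fold change of 1.5, 3 without the 2 deepest libraries and 5 to 6 with each library left out. Reverse signalling had 0 by library totals, both limma fits, genes of all biotypes, a fold change of 1.5 and without the 2 deepest libraries, and 0 to 1 with each library left out, 0 without gCtl replicate 1, gCtl replicate 2 or g2 replicate 2. Cleavage and endocytosis had 2 to 5, 5 without gCtl replicate 5, and the crypt genes 3 against a fold change of 1.5 and 7 to 8 with each library left out. Genes of under 50 counts a library, here *EPHA2*, *EFNA1*, *EFNA4* and *EFNB1*, are limited by depth.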
